A study of Mus musculus with 7 samples.

Results

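The genes of the mouse major histocompatibility complex (MHC) and of antigen presentation were followed in sorted bowel cells of mouse embryos at embryonic day 17.5. Members were all genes whose symbol starts with H2-, the mouse MHC locus name, together with 14 named genes that regulate, assemble or load MHC molecules or resemble them. Of 19938 genes tested, 42 were members with a probe set of their own, 29 by their H2- symbol and 13 by name. A further 8 probe sets listed several H2 genes at once and are given as such, and Fcgrt, the remaining named gene, was not analysed here.

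The 7 microarrays came from embryos with Wnt1-Cre, which expresses Cre recombinase from a neural crest promoter, and R26R-EYFP, a reporter at the Rosa26 locus that makes yellow fluorescent protein in cells with a history of Cre and in their descendants. The groups were 4 YFP-positive samples, enteric neural crest-derived cells (ENCDC) that form the neurons and glia of the bowel, and 3 YFP-negative samples with the other bowel cells of the same genotype. The comparison addresses which genes ENCDC and other bowel cells use differently late in enteric nervous system development. The labels name whole bowel as the source and do not say how many embryos went into a sample, so that each p-value reflects the spread between these arrays alone, which may be technical. Values are log2 expression levels from the RMA method, without detection calls, and the median level of an array was 5.87 to 5.92. In the YFP-positive samples, markers of enteric neurons were higher for 6 of 6 measured genes and those of glia for 4 of 4. The YFP-negative gate holds many cell types. Their markers were lower in YFP-positive cells for 15 of 15 myeloid genes, 5 of 9 dendritic cell genes, 1 of 4 B cell genes, 5 of 5 genes of T and innate lymphoid cells and 5 of 6 fibroblast genes. This held for 3 of 10 endothelial genes (1 was higher), 2 of 6 smooth muscle genes (0 to 4 with 1 array left out) and 0 of 12 epithelial genes. Without YFP-positive arrays 3 and 4, 3 of 5 genes of T and innate lymphoid cells, 5 of 6 smooth muscle genes and 2 of 12 epithelial genes were lower. The epithelial marker mean was 7.95 to 9.05 on the YFP-positive and 8.46 to 8.62 on the YFP-negative arrays. Whether levels in the YFP-positive samples came from ENCDC alone was not tested.

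MHC class I molecules sit on nearly all nucleated cells and present peptides cut in the cytosol to cytotoxic T cells. The proteasome cuts these peptides, the TAP transporter carries them into the endoplasmic reticulum, and a loading complex places them on a heavy chain paired with the light chain encoded by B2m. MHC class II molecules present peptides from endosomes to helper T cells. They are made mainly by dendritic cells, macrophages and B cells, under the transcriptional activator encoded by Ciita, and carry the invariant chain Cd74 until H2-DM exchanges its fragment for a peptide. Neurons are known for low class I levels, and interferon gamma raises both pathways in many cell types.

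Antigen presentation genes were lower in the YFP-positive samples wherever they passed the test. Of the 42 members, 17 were lower in YFP-positive cells at a limma adjusted p under 0.05, 0 were higher and 25 did not pass. Over all genes tested 9.11% were lower and 8.39% higher, or 17.5% in either direction. For 18 of the 42 members every YFP-positive array lay below every YFP-negative array. Of all genes, 26.9% had groups that did not overlap, 13.5% with the YFP-positive arrays below. The lower members were 7 of 10 class II genes, 7 of 7 genes of class I peptide supply and 3 of 24 class I chains, regulators and class I-like genes. The median log2 fold changes of these sets were -1.95, -1.19 and -0.13, against 0.01 over all genes. Among the 14 members with a mean level of at least 6 on the log2 scale 11 were lower, and among the 28 dimmer members 6 were lower. For all genes these shares were 11.8% and 6.56%. In bulk samples, fewer cells of a type and less RNA per cell cannot be told apart.

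**Figure D1:**
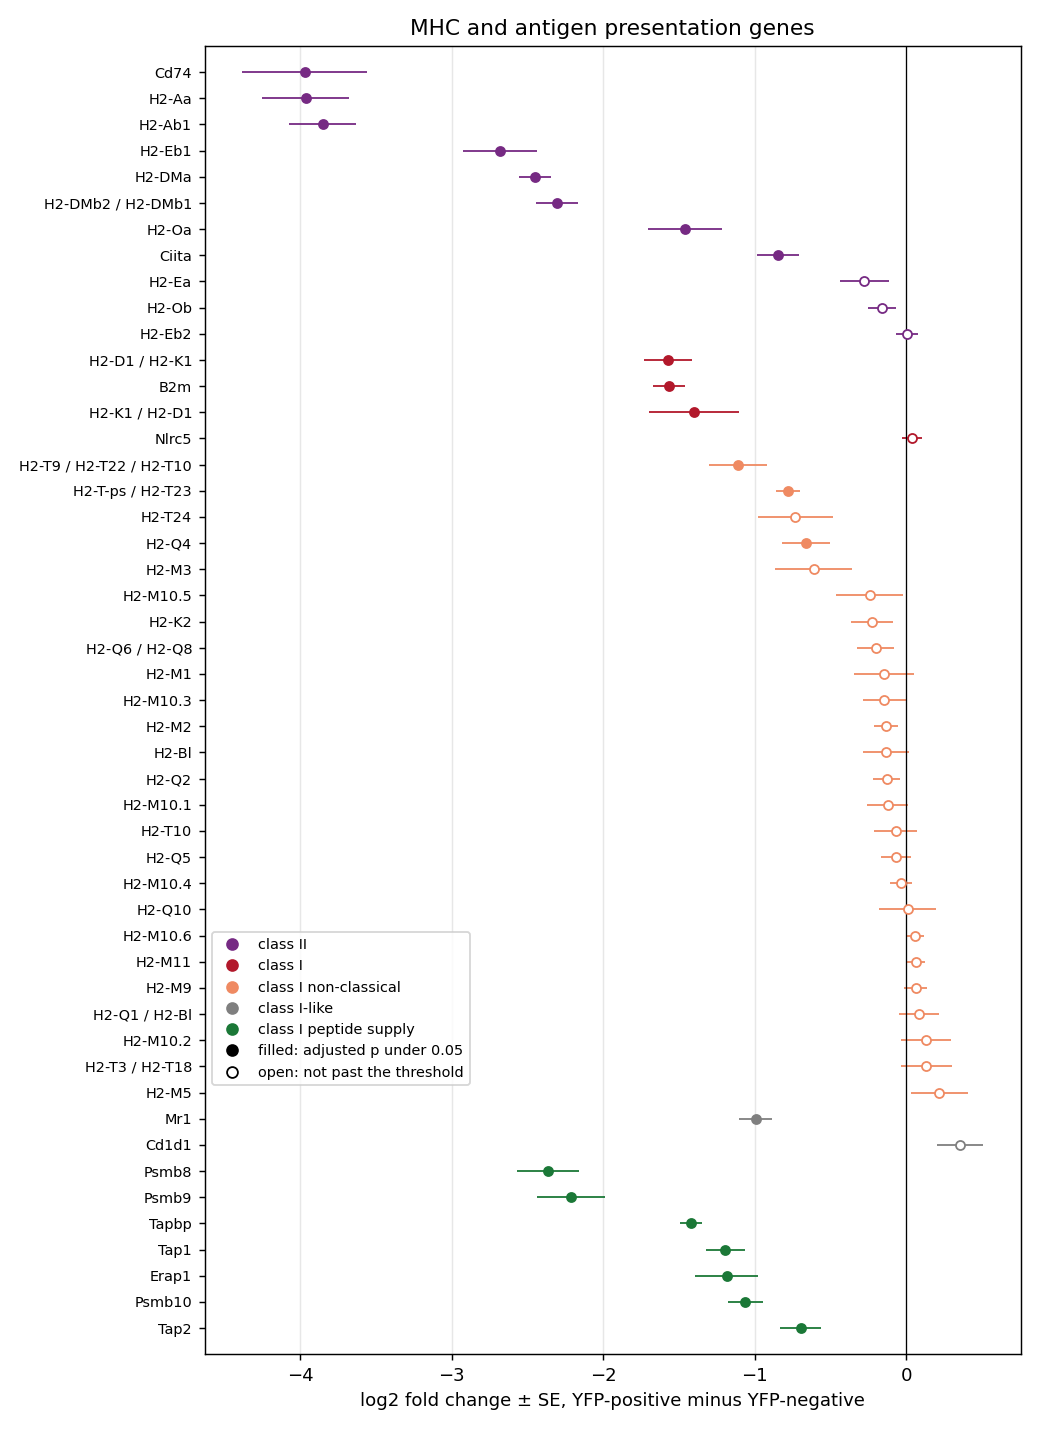
Log2 fold change (YFP-positive minus YFP-negative, with the standard error) of the class I, class II and peptide supply genes and of the 8 probe sets that list several H2 genes, by role. Filled points passed a limma adjusted p of 0.05, and all of them lie left of 0, from Cd74 at -3.97 to H2-Q4 at -0.66.

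Class II genes had the largest differences among the members, led by Cd74, H2-Aa and H2-Ab1. H2-Aa, the alpha chain of the H2-A molecule, had levels of 6.23, 5.90, 6.78 and 7.05 on the YFP-positive arrays, against 10.22, 10.40 and 10.74 on the YFP-negative arrays (log2 fold change -3.96 ± 0.29 SE, limma adjusted p = 1.73e-04), a level 15.6-fold lower in YFP-positive cells. H2-Ab1, its beta chain, had 5.58, 5.92, 6.29 and 6.42 on the YFP-positive arrays, against 9.70, 9.83 and 10.18 on the YFP-negative arrays (log2 fold change -3.85 ± 0.22 SE, limma adjusted p = 7.85e-05). Every YFP-positive array lay below every YFP-negative array for both chains, with no YFP-positive value above 7.05 and no YFP-negative value below 9.70. H2-Eb1, the beta chain of the second class II molecule H2-E, had 5.42, 5.62, 6.14 and 6.37 on the YFP-positive arrays, against 8.33, 8.59 and 8.80 on the YFP-negative arrays (log2 fold change -2.68 ± 0.25 SE, limma adjusted p = 4.83e-04). The partner alpha chain H2-Ea lay between 3.38 and 4.19 on all 7 arrays and did not pass, at a log2 fold change of -0.28 ± 0.16. The C57BL/6 strain is known to lack a working H2-Ea gene. The strain is not given in the labels.

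Genes that assist class II molecules fell as well. Cd74, the invariant chain, had levels of 5.16, 5.69, 6.65 and 6.86 on the YFP-positive arrays, against 9.87, 9.99 and 10.32 on the YFP-negative arrays (log2 fold change -3.97 ± 0.41 SE, limma adjusted p = 8.39e-04), 15.7-fold lower in YFP-positive cells. The groups were far apart, and within the YFP-positive group arrays 3 and 4 stood above arrays 1 and 2. H2-DMa, one chain of the peptide exchanger H2-DM, had 5.19, 5.40, 5.56 and 5.61 on the YFP-positive arrays, against 7.91, 7.90 and 7.85 on the YFP-negative arrays (log2 fold change -2.45 ± 0.11 SE, limma adjusted p = 3.41e-05). The probe set that lists H2-DMb2 and H2-DMb1, the genes of the other chain, had 5.15, 4.76, 5.03 and 4.66 on the YFP-positive arrays, against 7.24, 7.05 and 7.33 on the YFP-negative arrays (log2 fold change -2.30 ± 0.14 SE, limma adjusted p = 2.98e-04, adjusted over all 35556 probe sets, of which 5.11% were lower). Neither group overlapped the other at either of these probe sets. H2-Oa, a chain of H2-O, which modulates H2-DM, was 2.75-fold lower (levels of 4.03, 4.83, 4.57 and 4.13 on the YFP-positive arrays, against 5.47, 5.88 and 6.20 on the YFP-negative arrays; log2 fold change -1.46 ± 0.24 SE, limma adjusted p = 0.0067). Leaving out YFP-positive arrays 3 and 4 took its limma adjusted p to 0.0658. The other chain, H2-Ob, did not pass at -0.16 ± 0.09, nor did H2-Eb2, a further beta chain gene of the H2-E type, at 0.00 ± 0.07.

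Ciita, the activator needed for class II transcription, had 5.01, 4.86, 5.12 and 4.75 on the YFP-positive arrays, against 5.65, 5.61 and 6.08 on the YFP-negative arrays (log2 fold change -0.85 ± 0.14 SE, limma adjusted p = 0.00656). The groups of Ciita did not overlap. Ciita binds DNA through partner factors. Of these, Rfx5, Rfxank, Rfxap, Creb1, Nfya, Nfyb and Nfyc, the subunits of the RFX complex, a CREB factor and the NF-Y complex, 0 of 7 passed in either direction, with log2 fold changes of -0.08 to 0.17. Rfxank had an identical level of 6.40 on all 4 YFP-positive arrays. Of 9 measured genes for endosomal processing and costimulation 6 were lower and 0 higher. Ctss, the protease that trims the invariant chain, had 5.78, 6.37, 7.51 and 7.39 on the YFP-positive arrays, against 10.22, 10.52 and 10.42 on the YFP-negative arrays (log2 fold change -3.63 ± 0.42 SE, limma adjusted p = 0.00132). Cd86, a costimulatory ligand for T cells (-1.59 ± 0.16, log2 fold change ± SE), and Lgmn, an endosomal endopeptidase (-1.52 ± 0.12), were lower as well.

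**Figure D2:**
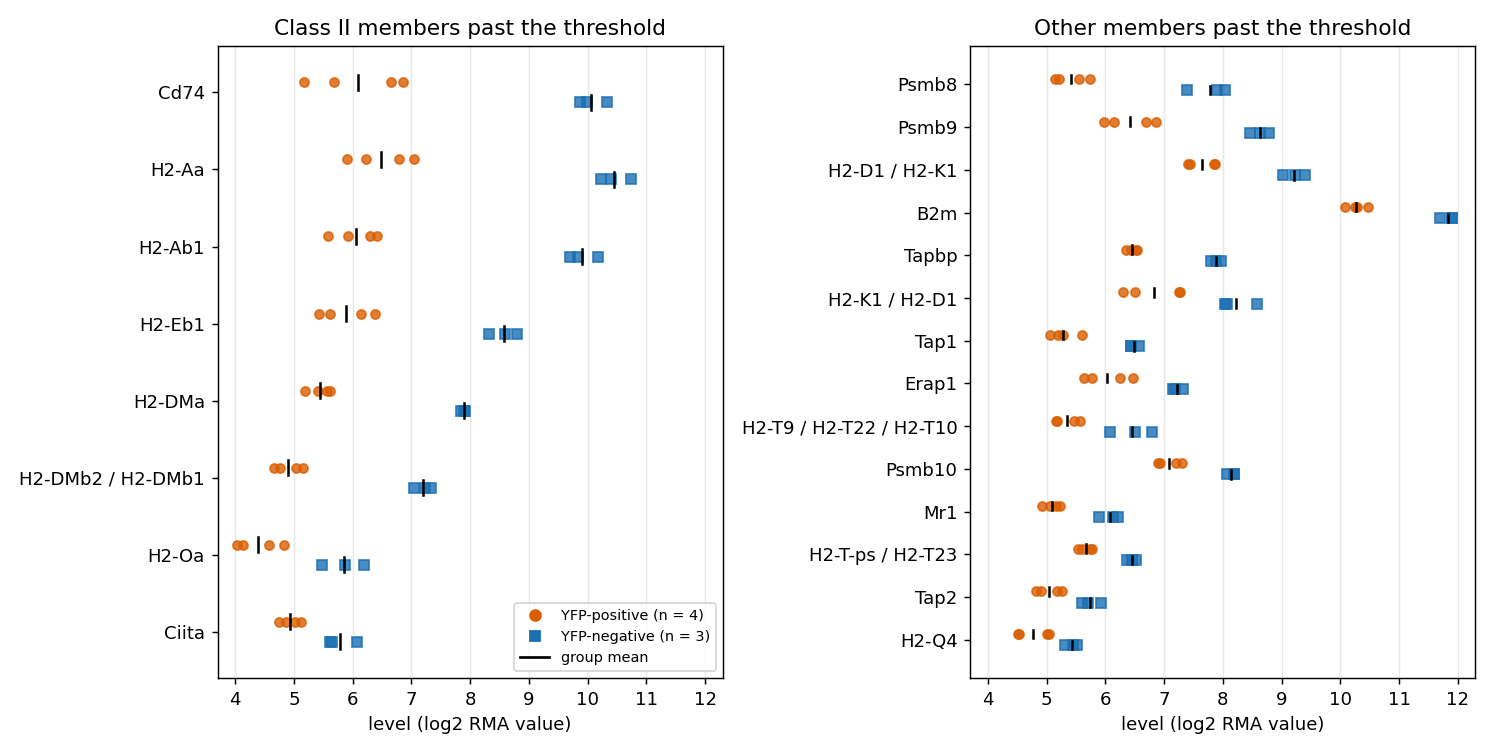
Log2 level on each of the 7 arrays for the 22 genes and probe sets that passed the threshold, class II on the left and all others on the right, with a bar at each group mean. No YFP-positive point reaches the YFP-negative points of its row. The widest separations belong to Cd74, H2-Aa and H2-Ab1.

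The promoters of class II genes carry an X box, bound by RFX, and a Y box, bound by NF-Y, a short distance before the start site. The stretches below are shown because these genes share the regulators just described while their levels differed between the groups to unequal extents. They come from RefSeq promoter windows (build GRCm38.p6, 250 bases before to 50 bases after a start site) and run from base -160 to base -1, 5′ to 3′ on the gene's strand, at chr17:34287824-34287983 (minus strand) for H2-Aa, chr17:34305707-34305866 (plus strand) for H2-Eb1, chr17:34153031-34153190 (plus strand) for H2-DMb1 and chr17:34325515-34325674 (plus strand) for H2-Eb2. Capitals mark matches to CTGATTGG, the Y box, and GNAACNGAT, a core of the X box. The letters of these and the later motifs were chosen after the windows had been read. Both strands were searched, and the letters of these motifs did not overlap in any of these 4 stretches.
H2-Aa: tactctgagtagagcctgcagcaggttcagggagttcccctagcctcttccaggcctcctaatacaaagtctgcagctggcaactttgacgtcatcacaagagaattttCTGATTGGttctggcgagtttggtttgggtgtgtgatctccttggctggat
H2-Eb1: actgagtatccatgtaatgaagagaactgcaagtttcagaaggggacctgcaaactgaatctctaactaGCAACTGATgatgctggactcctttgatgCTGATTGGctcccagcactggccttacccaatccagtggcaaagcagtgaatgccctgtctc
H2-DMb1: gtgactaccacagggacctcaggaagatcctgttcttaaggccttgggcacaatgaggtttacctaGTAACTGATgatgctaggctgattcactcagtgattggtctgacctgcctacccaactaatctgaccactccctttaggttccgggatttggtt
H2-Eb2: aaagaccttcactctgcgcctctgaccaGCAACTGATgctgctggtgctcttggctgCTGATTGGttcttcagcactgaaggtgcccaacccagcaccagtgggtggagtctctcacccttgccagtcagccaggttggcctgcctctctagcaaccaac
H2-Eb1 held the X core letters from -91 to -83 and the Y box letters from -62 to -55, and H2-Aa the Y box letters from -51 to -44. H2-DMb1 held the X core letters from -94 to -86. Only exact letters were searched, so H2-Aa may still hold a variant of the X box, and H2-DMb1 one of the Y box. H2-Eb2 had the same pair of motifs as H2-Eb1, from -132 to -124 and from -103 to -96, with mean levels of 4.11 in both YFP-positive and YFP-negative cells. Of all 32851 promoter windows 4.10% held the Y box letters and 2.05% the X core. Windows were counted for 8 class II genes measured alone or in the shared probe set. Cd74, the gene with the largest difference, was left out of this count, and no window was given for H2-Ab1 and Ciita. Among the 8, 3 of the 6 with a lower probe set held the exact Y box letters and 2 those of the X core. Of the 2 that did not pass, 1 (H2-Eb2) held both sets of letters. These counts do not say that the other genes lack either box.

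The light chain of class I molecules and the classical heavy chains were lower in the YFP-positive samples, with log2 fold changes between -1.57 and -1.40. B2m had levels of 10.24, 10.08, 10.28 and 10.47 on the YFP-positive arrays, against 11.70, 11.90 and 11.90 on the YFP-negative arrays (log2 fold change -1.57 ± 0.10 SE, limma adjusted p = 1.34e-04), 2.96-fold lower in YFP-positive cells. The classical heavy chain genes H2-K1 and H2-D1 had no probe set of their own. A first probe set, annotated to H2-D1, the locus LOC547349 and H2-K1, had 7.44, 7.41, 7.87 and 7.85 on the YFP-positive arrays, against 9.02, 9.22 and 9.39 on the YFP-negative arrays (log2 fold change -1.57 ± 0.16 SE, limma adjusted p = 0.0017, over all probe sets). A second, which lists the same 3 genes with H2-K1 first, had 6.29, 6.51, 7.25 and 7.26 on the YFP-positive arrays, against 8.04, 8.06 and 8.59 on the YFP-negative arrays (log2 fold change -1.40 ± 0.29 SE, limma adjusted p = 0.0299, over all probe sets). No YFP-positive array reached the YFP-negative range at B2m or at either shared probe set, but the call of the second probe set was lost when any YFP-negative array, or YFP-positive array 1 or 2, was left out (limma adjusted p between 0.0579 and 0.0924).

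The class I promoter has its own upstream enhancer, and the stretches of H2-K1, H2-D1 and B2m are shown because these genes encode the complete classical molecule. Capitals mark GGGATTCCC, the kappa B site of enhancer A, GAAANNGAA, a core of the interferon-stimulated response element, and the Y box letters on the opposite strand. The stretches run to base -1 on the gene's strand from base -190 for H2-D1 (chr17:35262904-35263093, plus strand) and from base -160 for B2m (chr2:122147527-122147686, plus strand), and from base -160 to base 2 for H2-K1 (chr17:34000332-34000493, minus strand). The Y box letters of H2-K1 cross the start site used here, while a second RefSeq start of H2-K1 puts them at 9 to 16.
H2-K1: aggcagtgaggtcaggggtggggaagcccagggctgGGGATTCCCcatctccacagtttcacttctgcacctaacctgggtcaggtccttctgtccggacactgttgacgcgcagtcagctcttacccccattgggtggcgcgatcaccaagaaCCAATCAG
H2-D1: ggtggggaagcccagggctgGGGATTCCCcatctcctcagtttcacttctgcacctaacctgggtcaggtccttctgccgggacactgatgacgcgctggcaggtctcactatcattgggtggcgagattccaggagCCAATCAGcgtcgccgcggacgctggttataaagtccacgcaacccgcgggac
B2m: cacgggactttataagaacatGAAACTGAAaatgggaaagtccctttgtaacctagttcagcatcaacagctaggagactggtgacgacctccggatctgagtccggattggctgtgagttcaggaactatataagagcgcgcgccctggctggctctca
The kappa B letters stood in 116 of the 32851 windows (0.353%), and the interferon element core in 8.56%. H2-K1 had the kappa B letters at -124 to -116 (-110 to -102 from its second start), H2-D1 at -170 to -162, and B2m the interferon element core at -139 to -131. The kappa B letters occurred in 3 of 24 class I genes with a window, H2-K1, H2-D1 and H2-Q6. The shared probe set of H2-Q6 with H2-Q8 did not pass (-0.20 ± 0.12). The exact letters of the interferon element core occurred in B2m and in 2 other class I windows, H2-T23 and H2-T22. Those 2 genes were measured only in probe sets shared with other genes. Variants of the element were not searched for, so windows without these letters, such as those of H2-K1 and H2-D1, may still hold it. The Y box letters stood before or at the start of 4 of 8 class I genes counted as lower and of 9 of 16 of the rest. A gene with a probe set of its own, such as H2-T10, was classed by that probe set alone, and the others by their shared probe set.

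Genes that supply peptides to class I molecules fell together, 7 of 7. Psmb8, a catalytic subunit of the immunoproteasome, the interferon-inducible form of the proteasome, had 5.15, 5.20, 5.74 and 5.55 on the YFP-positive arrays, against 7.39, 7.91 and 8.03 on the YFP-negative arrays (log2 fold change -2.36 ± 0.21 SE, limma adjusted p = 3.86e-04). Psmb9, the second such subunit, had 6.15, 5.98, 6.86 and 6.69 on the YFP-positive arrays, against 8.47, 8.64 and 8.79 on the YFP-negative arrays (log2 fold change -2.21 ± 0.23 SE, limma adjusted p = 7.82e-04). Psmb10, the third, was 2.09-fold lower (-1.06 ± 0.12, limma adjusted p = 9.78e-04). The groups did not overlap for any of the 3. The subunits they replace in the constitutive proteasome, Psmb5, Psmb6 and Psmb7, did not pass, with log2 fold changes of 0.09 ± 0.10, 0.14 ± 0.12 and 0.21 ± 0.10 and overlapping groups. Psme1 (-0.67 ± 0.09) and Psme2 (-0.72 ± 0.11), the interferon-inducible proteasome activator subunits, were lower, and the nuclear activator Psme3 did not pass (-0.24 ± 0.27).

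**Figure D3:**
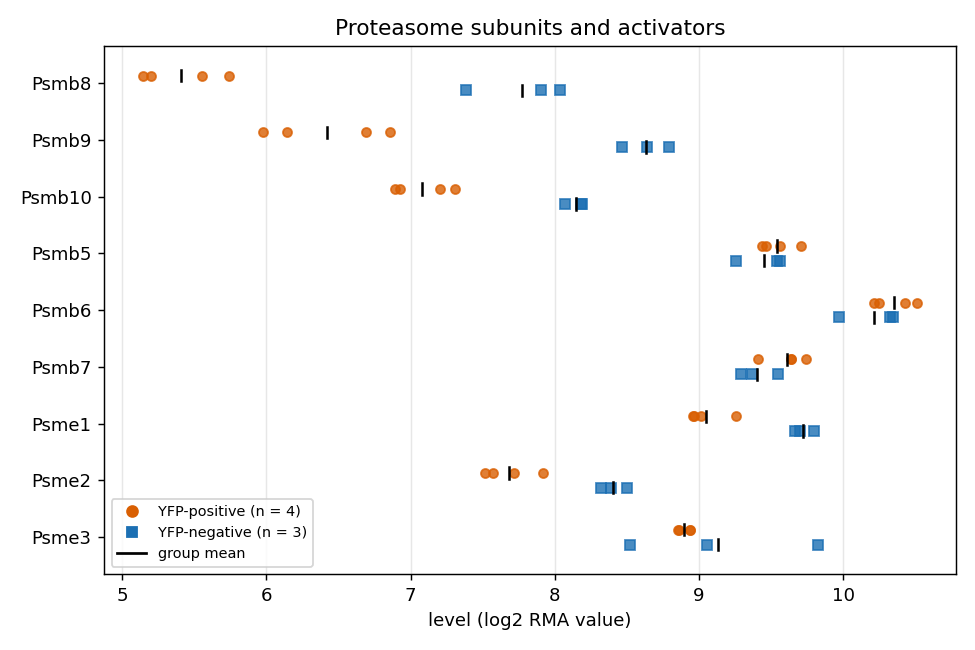
Log2 level on each array of the immunoproteasome subunits Psmb8, Psmb9 and Psmb10, the constitutive subunits Psmb5, Psmb6 and Psmb7, and the activators Psme1, Psme2 and Psme3, with a bar at each group mean. The groups are apart for the 3 immunoproteasome subunits, Psme1 and Psme2, and overlap for the others.

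The transporter and loading genes Tap1, Tap2, Tapbp and Erap1 were lower too. Tap1 had 5.06, 5.20, 5.28 and 5.60 on the YFP-positive arrays, against 6.43, 6.44 and 6.57 on the YFP-negative arrays (log2 fold change -1.19 ± 0.13 SE, limma adjusted p = 9.17e-04), and its partner subunit Tap2 5.18, 4.83, 5.27 and 4.91 on the YFP-positive arrays, against 5.61, 5.70 and 5.93 on the YFP-negative arrays (log2 fold change -0.70 ± 0.13 SE, limma adjusted p = 0.0119). Tapbp, or tapasin, the bridge between transporter and heavy chain, had 6.44, 6.35, 6.53 and 6.52 on the YFP-positive arrays, against 7.96, 7.80 and 7.88 on the YFP-negative arrays (log2 fold change -1.42 ± 0.07 SE, limma adjusted p = 4.91e-05). The SD of Tapbp was 0.083 in YFP-positive and 0.081 in YFP-negative cells. Erap1, the aminopeptidase that trims peptides in the endoplasmic reticulum, had 5.64, 5.77, 6.25 and 6.48 on the YFP-positive arrays, against 7.15, 7.19 and 7.32 on the YFP-negative arrays (log2 fold change -1.19 ± 0.21 SE, limma adjusted p = 0.00796), with YFP-positive arrays 3 and 4 nearest to the YFP-negative group. A list of chaperones and related genes of the endoplasmic reticulum (Calr, Canx, Pdia3, Tapbpl, Erp29, Hspa5 and P4hb) gave few calls. Of 7 measured, 1 was lower, the chaperone gene Erp29 (-0.55 ± 0.12), and 0 were higher, and the count was 0 to 2 with 1 array left out. Calr (-0.26 ± 0.11), Canx (0.04 ± 0.06) and Pdia3 (-0.13 ± 0.10), which fold and hold heavy chains, did not pass. The probe sets that list Tapbp beside the ribosomal protein gene Rps3a1 were at 11.80 to 12.15 on all arrays with a log2 fold change of 0.01 at each, did not pass, and were not read as Tapbp.

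Psmb9 and Tap1 are transcribed away from each other from one shared promoter. The 225 bases between their RefSeq start sites, read on the strand of Tap1 (chr17:34187331-34187555, plus strand, GRCm38.p6), are shown because both genes were lower. Capitals mark the Y box letters, here on the opposite strand, that is, on the strand of Psmb9, where they run from -11 to -4.
Psmb9 to Tap1: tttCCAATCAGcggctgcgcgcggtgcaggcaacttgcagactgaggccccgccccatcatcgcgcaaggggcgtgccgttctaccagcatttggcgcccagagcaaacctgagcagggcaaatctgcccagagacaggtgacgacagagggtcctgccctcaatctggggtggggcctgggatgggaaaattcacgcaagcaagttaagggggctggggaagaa
None of the other 3 motifs was found between the start sites. No match says only that these letters are not in this window.

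The class I non-classical genes of the H2-Q, H2-T and H2-M regions were dim and mostly did not pass. All 20 with their own probe set (H2-K2 and H2-Bl included) had a mean level under 6, from 2.84 to 5.62, with no detection calls to set them apart from background, and 1 of 20 was lower. This was H2-Q4, with 5.01, 5.03, 4.51 and 4.53 on the YFP-positive arrays, against 5.45, 5.32 and 5.51 on the YFP-negative arrays (log2 fold change -0.66 ± 0.16 SE, limma adjusted p = 0.0285). H2-Q4 no longer passed in 7 of the 16 alternatives, 5 of which dropped 1 array, either YFP-positive array 3 or 4 or any YFP-negative array (limma adjusted p of up to 0.125). H2-T24 had 5.25, 5.15, 5.32 and 5.50 on the YFP-positive arrays, against 5.59, 5.84 and 6.68 on the YFP-negative arrays and did not pass (log2 fold change -0.73 ± 0.25 SE, limma adjusted p = 0.0932), although the groups did not overlap. H2-M3, which presents formylated peptides, had -0.61 ± 0.25 and did not pass (limma adjusted p = 0.157), and was lower without YFP-positive arrays 3 and 4 (-1.02, limma adjusted p = 0.0151). The other 17 had log2 fold changes between -0.24 and 0.22.

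Among the shared probe sets of non-classical genes, 2 of 5 were lower. The probe set of H2-T-ps and H2-T23, of which H2-T23 encodes a molecule that presents leader peptides of other class I chains to natural killer cells, had 5.61, 5.54, 5.73 and 5.78 on the YFP-positive arrays, against 6.36, 6.46 and 6.52 on the YFP-negative arrays (log2 fold change -0.78 ± 0.08 SE, limma adjusted p = 0.00186, over all probe sets). That of H2-T9, H2-T22 and H2-T10, of which H2-T22 and H2-T10 are ligands of gamma delta T cells, had 5.58, 5.15, 5.47 and 5.18 on the YFP-positive arrays, against 6.51, 6.79 and 6.07 on the YFP-negative arrays (log2 fold change -1.11 ± 0.19 SE, limma adjusted p = 0.0143, over all probe sets). Without YFP-negative array 1 its limma adjusted p was 0.0583, and without YFP-positive arrays 3 and 4 it was 0.108, so that it no longer passed. The groups did not overlap at either. The probe set that lists H2-T10 alone did not pass, at -0.07 ± 0.14. Of the 8 probe sets with several H2 genes, 5 were lower and 0 higher, all 5 with groups that did not overlap. Over every probe set 10.2% passed, 5.14% higher and 5.11% lower, and 20.9% had groups that did not overlap. The probe sets of H2-Q6 with H2-Q8, H2-Q1 with H2-Bl and H2-T3 with H2-T18 did not pass, at log2 fold changes of -0.20 to 0.13. H2-Ke6, an enzyme gene that carries the prefix by position only, had -0.02 ± 0.06.

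The class I-like genes differed from each other. Mr1, which presents vitamin B metabolites to mucosal-associated invariant T cells, had 5.15, 5.06, 4.91 and 5.22 on the YFP-positive arrays, against 6.22, 6.13 and 5.89 on the YFP-negative arrays (log2 fold change -0.99 ± 0.11 SE, limma adjusted p = 9.44e-04). Cd1d1, which presents lipids to natural killer T cells, had 6.3141, 6.5390, 6.1240 and 5.9996 on the YFP-positive arrays, against 6.0277, 5.6403 and 6.0029 on the YFP-negative arrays (log2 fold change 0.35 ± 0.15 SE, limma adjusted p = 0.179). Cd1d1 had the largest log2 fold change above 0 of the 42 members, but its groups overlapped and it did not pass.

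Nlrc5 is an activator of class I genes related to Ciita. The probe set with the highest mean had 7.78, 7.67, 7.74 and 7.73 on the YFP-positive arrays, against 7.62, 7.65 and 7.81 on the YFP-negative arrays (log2 fold change 0.03 ± 0.07 SE, limma adjusted p = 0.775), and its groups overlapped. The array has 19 probe sets for this gene, with mean levels from 3.31 to 7.71 and log2 fold changes from -0.77 to 0.14, and 1 of the 19 was lower and 0 were higher, where 5.11% of every probe set tested was lower. The lower one had 5.24, 5.07, 5.09 and 5.24 on the YFP-positive arrays, against 5.79, 6.03 and 5.97 on the YFP-negative arrays (log2 fold change -0.77 ± 0.08 SE, limma adjusted p = 0.00225). Of the other class I regulators and interferon receptors 6 of 10 measured were lower and 0 higher, led by the interferon gamma receptor chain Ifngr1 (-1.62 ± 0.13), the type I interferon receptor chain Ifnar2 (-1.28 ± 0.07) and the transcription factor Irf1 (-0.88 ± 0.08).

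**Figure D4:**
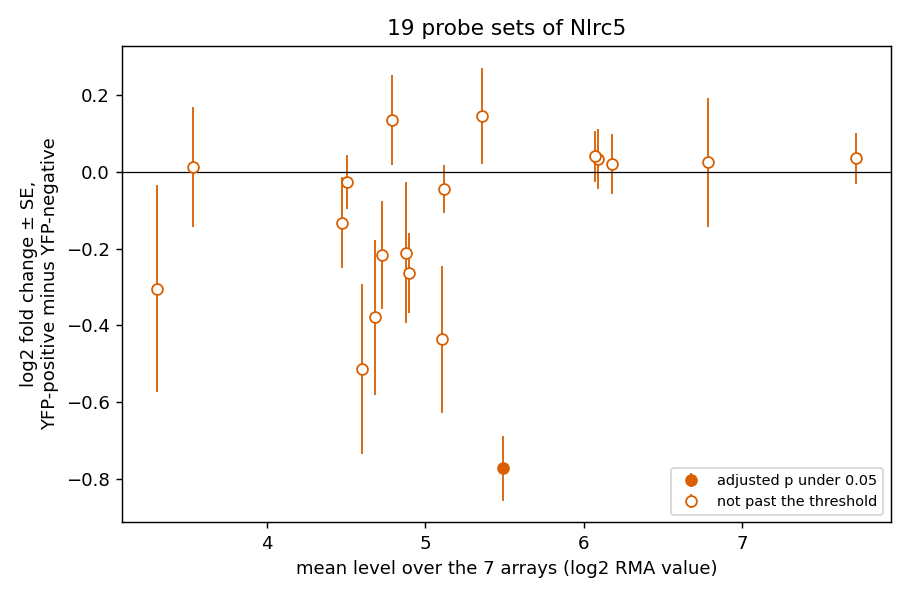
Log2 fold change (YFP-positive minus YFP-negative, with the standard error) of each of the 19 Nlrc5 probe sets against its mean level over the 7 arrays. The 1 filled point, at -0.77, passed the threshold, and the brightest probe set lies at 0.03.

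Interferon-stimulated genes beyond antigen presentation were lower in 14 of 22 measured cases and higher in 0, with a median log2 fold change of -1.01. Rtp4 (-2.21 ± 0.27), Oas2, an enzyme gene of the antiviral RNase L pathway (-1.91 ± 0.22) and Bst2, which tethers budding viruses (-1.81 ± 0.21), had the largest differences among the 14 that passed. Rsad2 had -2.0006, with groups that did not overlap, and did not pass (limma adjusted p = 0.067). The mean level of the 22 genes was 5.05, 4.97, 5.24 and 5.09 on the YFP-positive arrays, against 5.87, 6.51 and 6.07 on the YFP-negative arrays, so that YFP-negative array 2 stood highest. Without that array 10 of 22 were lower and the median was -0.74. The count fell to 8 of 22 without YFP-positive array 1, 2 or 4. These arrays were left out for the pathway and marker lists after the data had been seen.

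Markers of immune cells were lower in YFP-positive cells to unequal extents, 15 of 15 for myeloid cells but 5 of 9 for dendritic cells and 1 of 4 for B cells. The mean level of H2-Aa, H2-Ab1, H2-Eb1, Cd74 and H2-DMa, a set chosen after the values were seen, was 5.52, 5.71, 6.29 and 6.46 on the YFP-positive arrays, against 9.21, 9.34 and 9.58 on the YFP-negative arrays. The mean of the 15 myeloid markers was 5.44, 5.77, 6.28 and 6.55 on the YFP-positive arrays, against 9.28, 9.49 and 9.30 on the YFP-negative arrays. Both sets were thus higher on YFP-positive arrays 3 and 4 than on arrays 1 and 2. This order was not particular to immune cells. On YFP-positive arrays 1 to 4 the smooth muscle mean was 8.20, 9.04, 9.66 and 10.11 and the fibroblast mean 8.05, 8.34, 8.75 and 8.99. The B cell mean, at 4.32, 4.30, 4.50 and 4.21, did not have this order. The log2 of the summed myeloid levels was 9.52 to 10.69 in YFP-positive and 13.54 to 13.78 in YFP-negative cells. For the 9 dendritic cell markers it was 8.08 to 8.34 in YFP-positive and 9.14 to 9.31 in YFP-negative cells. For the 4 B cell markers it was 6.33 to 6.67 in YFP-positive and 7.54 to 8.25 in YFP-negative cells. For the 5 markers of T and innate lymphoid cells it was 8.98 to 9.35 in YFP-positive and 10.54 to 10.90 in YFP-negative cells. Most of that YFP-positive sum came from Id2, at 8.65 to 9.13 on the YFP-positive arrays. Cd3e, Cd3g, Cd3d and Il7r had YFP-positive means of 4.93, 4.78, 3.67 and 4.73. Values near background have no zero on this scale. Itgax, an integrin gene of dendritic cells and macrophages (-2.19 ± 0.24), and the B cell receptor gene Cd79b (-2.31 ± 0.23) were lower, while the dendritic cell genes Zbtb46 (-0.06 ± 0.10) and Xcr1 (0.01 ± 0.15) did not pass. The part of these cell types in the result was not tested.

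**Figure D5:**
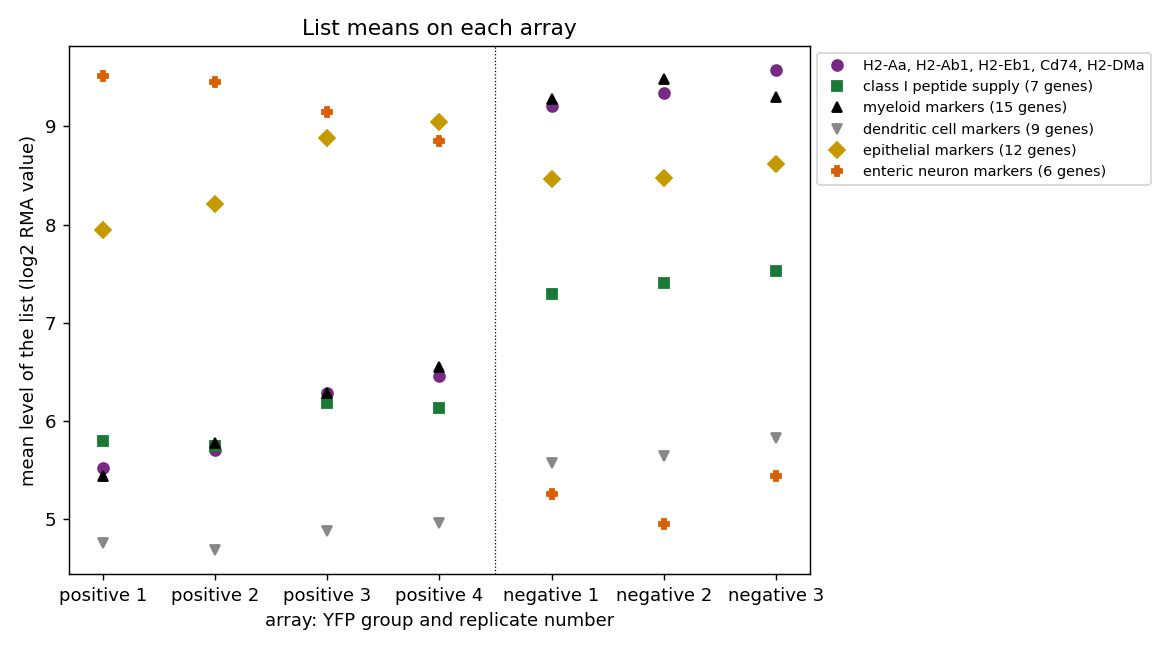
Mean log2 level of 5 class II genes, of the peptide supply genes and of 4 marker lists on each array, YFP-positive left and YFP-negative right of the dotted line. The class II and myeloid means are 5.44 to 6.55 on the YFP-positive and 9.21 to 9.58 on the YFP-negative arrays, while the epithelial means overlap between the groups.

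Within the YFP-positive group, 15 of the 22 lower genes and probe sets were higher on both of arrays 3 and 4 than on arrays 1 and 2, and 1 was lower on both. Over all genes these shares were 17.0% and 19.2%, and 48.6% of all lower genes were higher on arrays 3 and 4. The peptide supply mean was 5.79, 5.75, 6.18 and 6.14 on the YFP-positive arrays, against 7.30, 7.41 and 7.53 on the YFP-negative arrays. The epithelial marker mean was 7.95, 8.21, 8.88 and 9.05 on the YFP-positive arrays, against 8.46, 8.47 and 8.62 on the YFP-negative arrays, so that it was highest on YFP-positive arrays 3 and 4. Without these arrays, 7 of 7 peptide supply genes, 6 of 10 class II genes and 4 of the 24 class I chains, regulators and class I-like genes were lower, and 16 of the 17 lower members kept their call.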

How the data were processed

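Per the labels' protocols, cells of whole bowel were sorted by fluorescence, RNA was extracted with Trizol, and a whole-transcriptome kit amplified it into biotinylated cDNA. The authors deposited log2 values for each probe set. Per the submitters' processing notes these come from the RMA method in Affymetrix Expression Console, whose version is not given here. Whether 1 RMA run covered all 7 arrays is likewise not stated. The number of arrays limits the precision. Columns were matched to samples by name, and 0 were left unmatched.

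The platform annotation gave 21789 of 35556 probe sets 1 gene symbol, 1621 several and 12146 none. The probe set with the highest mean was used for each gene, 19938 in all, of which 19856 matched the RefSeq gene table by Entrez identifier. Probe sets of several genes were read from a fit over every probe set. Related MHC sequences may cross-hybridise. Equal values on 3 or more arrays occurred in 32.7% of all genes and in 8 of the 42 members, all 8 with a mean level under 6. The small spread of such genes need not mean a precise measurement, and the cause of the equal values was not tested. Groups were compared with lmFit and eBayes (limma 3.58.1, R 4.3.3), group as the only term, and Benjamini-Hochberg adjustment over all features. The fit was tested on simulated data. Python 3.11.15, pandas 2.3.3, numpy 2.4.6 and matplotlib 3.10.9 were used.

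Members, roles and lists were chosen with earlier results of these data known. All members are accounted for. Values on every array were planned for members past the threshold and a fixed set of genes, and up to 3 genes past the threshold are named from other lists. List genes named without passing were picked after seeing their values. Alternatives were trend and robust eBayes, centring, quantile normalization, a filter on low genes, probe set means, every probe set, array weights, the replicate block and arrays left out. The 14 named genes in the rule include 1 not analysed here, as do some lists.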

Additional observations from a re-analysis of the deposited data

Results flagged for a closer look

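In the YFP-positive group of 4, the array farthest from the others was searched for by its gap relative to the range of the group, over 55 genes, probe sets and set means. This singled out 2 cases, and chance alone marks about 1 in 20. For H2-Q2, YFP-positive array 2 had a level of 4.55, against 4.73 to 4.74 on the other 3 arrays (gap ratio 0.966). YFP-positive arrays 1 and 3 and YFP-negative arrays 1 and 2 shared the same value of 4.7344, and such ties raise the ratio. For H2-T10, YFP-positive array 4 had 5.11, against 5.46 to 5.52 on the others (gap ratio 0.863). Both genes had mean levels under 6 and did not pass the test between the groups.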

How the results depend on the processing

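Under all 16 alternatives, 0 members were called higher and the 7 peptide supply genes stayed lower. The lower class II genes numbered 7, or 6 with the dimmest genes (bottom tertile by mean) left out and without YFP-positive arrays 3 and 4. No gene or probe set past the threshold changed direction, while some with log2 fold changes near 0, such as H2-Eb2, changed sign without passing. With the dimmest genes left out, the median log2 fold change was -3.27 for class II and -0.34 for the class I set, since dim members are removed. Array weights gave -0.063 for the class I set. Without YFP-positive arrays 3 and 4 the median of the supply genes was -1.49. With 1 array left out at a time, the class I median was -0.18 to -0.040, the lower probe sets with several H2 genes numbered 3 to 5 (3 without YFP-negative array 1), and the lower genes overall 1166 to 1890 (1166 without YFP-negative array 2). The causes were not tested. Single calls changed for H2-Q4, H2-Oa, H2-M3 and 2 shared probe sets.

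Replicate numbers are shared between the groups, but same-numbered arrays did not deviate together (correlations of 0.01, -0.09 and 0.04), so the numbers were not taken as pairs. With the replicate block, 1264 genes were lower and 1245 higher, and 16 of the 17 lower members kept their call, all but H2-Q4. The probe set of H2-T9, H2-T22 and H2-T10 lost its call (adjusted p = 0.127). Levels near the floor limit what can be said of the dim non-classical genes.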
